A study of Mus musculus with 6 samples.

Results

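Vax2os and 6 other long noncoding RNAs of the retina (Six3os1, Miat, Tug1, Malat1, Neat1 and Gas5) were followed in RNA-seq counts of retinae from Rb1/p107 DKO mice and from Rb1/p107/Hells TKO mice. The genes were picked by symbol from the count table, which lists 24062 genes, and these 7 were chosen on earlier results of the same counts. Their differences between the genotypes are therefore described with a standard error (SE) and without a test. The 3 TKO and 3 DKO libraries came from retinae of C57BL/6 mice (C57BL/6N in the study's methods) at postnatal day 21 (P21). Mice of both genotypes carried Chx10-Cre, a mosaic driver of retinal progenitors that leaves part of the cells without recombination. In both genotypes this Cre deleted floxed Rb1 in mice that lack p107 (p107-/-), a pair of genes that restrain the cell cycle. The TKO mice were also homozygous for a floxed allele of Hells, which encodes a chromatin remodeling protein, and the comparison asks what Hells loss changes in retinae that already lack Rb1 and p107.

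A long noncoding RNA is transcribed and often spliced like a messenger RNA but is not known to be translated. Some act on the gene on the opposite strand, some hold nuclear bodies together and some are the leftover of a gene whose introns give rise to small RNAs. Vax2os and Six3os1 are opposite-strand partners of homeobox genes of eye development, and both are known from work on retinal progenitors and photoreceptors. Miat, also called Gomafu, is a nuclear RNA of neurons that influences retinal cell fate, and Tug1 was named for its rise with taurine in retinal cells, where it is needed by photoreceptors. Malat1 lies in nuclear speckles, which store splicing factors, Neat1 is the scaffold of paraspeckles, and Gas5 hosts small nucleolar RNAs (snoRNAs) in its introns and accumulates in cells that stop dividing.

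Counts per library summed to between 10343907 and 14203098. Normalized counts are the read counts scaled by library size with edgeR's TMM method, and 16904 genes had a summed count of at least 10 and were compared by edgeR's quasi-likelihood test, with a threshold of 0.05 on the adjusted p. Hells was at 60.8, 68.4 and 83.4 in the TKO libraries (in order of replicate, as for every gene from here on). The DKO libraries had 678, 523 and 395, so the Hells level of each library went with its genotype label. Markers of dividing cells fell as well (below), and recombination of the Hells allele was not tested separately. The libraries were made from polyadenylated RNA, so the levels of Malat1 and of the long form of Neat1, whose 3′ ends are not polyadenylated, depend on that selection. Retinal markers were present in every group of cell types looked at, with none of the 12 rod, 10 bipolar or 10 amacrine markers at 0 in all libraries. Lens markers were higher in the TKO libraries, with a summed level of 684 to 4188 (highest in TKO replicate 2) against 159.7 to 176 normalized counts in the DKO libraries. Xist was at 12995 or more normalized counts in TKO replicates 2 and 3 and in DKO replicate 3 and at most 8.03 in the other 3 libraries, so both sexes were present in each genotype.

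Sequences of the members were also looked at, and 4 of them are shown. By its GENCODE start Vax2os begins inside the first intron of Vax2 and runs back across the start of that gene, and RefSeq lists that start and a second one that lies outside Vax2. The promoter window of the first, 250 bases before to 50 bases after the start in RefSeq (GRCm38.p6, chr6:83712152-83712451, minus strand), is given 5′ to 3′ with the transcribed bases in capitals.
Vax2os promoter window: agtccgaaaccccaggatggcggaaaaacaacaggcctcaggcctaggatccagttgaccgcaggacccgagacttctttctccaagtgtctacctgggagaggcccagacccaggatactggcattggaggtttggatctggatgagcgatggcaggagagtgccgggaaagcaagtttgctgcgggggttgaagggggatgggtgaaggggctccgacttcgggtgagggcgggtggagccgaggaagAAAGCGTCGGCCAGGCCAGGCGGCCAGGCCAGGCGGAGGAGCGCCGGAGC
The window holds 17 CG dinucleotides, 6 of them in the transcribed part. Over 32851 windows of the same length the median was 7 and the upper quartile 20, and the window of the second start (chr6:83710776-83711075) holds 9. Miat carries the repeat TACTAAC, which resembles the branch point that the splicing factor SF1 binds. It occurs 6 times in the 9163 bases of the annotated transcript Miat-205, in 2 clusters (GRCm38, chr5:112217307-112217462 and chr5:112216750-112216814, minus strand), shown here with each copy in capitals.
Miat-205 bases 4929 to 5084: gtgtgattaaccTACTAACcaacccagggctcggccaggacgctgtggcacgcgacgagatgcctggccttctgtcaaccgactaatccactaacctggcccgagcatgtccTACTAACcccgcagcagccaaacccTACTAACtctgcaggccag
Miat-205 bases 5577 to 5641: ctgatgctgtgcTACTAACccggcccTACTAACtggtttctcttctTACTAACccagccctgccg
Among the longest transcripts of 13373 other annotated long noncoding genes, 4.58% held the repeat at all and 1 held 6 copies. Among the 296 within 2 times the length of Miat, 14.5% held it and the most was 2 copies. Neat1 held 1 copy and the other 5 members none. Gas5 is shown because its transcript from one of its RefSeq starts opens with a run of pyrimidines, CTTTC, the start typical of genes for the translation machinery (GRCm38.p6, chr1:161034916-161035215, plus strand, transcribed bases in capitals).
Gas5 promoter window: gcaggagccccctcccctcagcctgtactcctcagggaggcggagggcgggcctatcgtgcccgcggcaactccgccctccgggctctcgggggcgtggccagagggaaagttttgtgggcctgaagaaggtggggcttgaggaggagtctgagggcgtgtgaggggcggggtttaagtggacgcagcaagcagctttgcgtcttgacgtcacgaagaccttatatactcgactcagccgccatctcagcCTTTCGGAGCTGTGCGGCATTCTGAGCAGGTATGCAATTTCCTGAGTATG
Of the 6 members with RefSeq windows (8 windows in all), none had TAATCC, the site of the photoreceptor factors CRX and OTX2, which 7.06% of all windows held on either strand. None had TTCCCGC, a site of E2F factors that 4.6% of windows held, and none had the TATA box letters TATAAA, held by 13.6%. The E2F letters TTGGCGC, held by 2.45%, occurred once, in the window of Tug1.

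Vax2os was the member with the clearest separation of the genotypes. It had 2705, 2457 and 2124 normalized counts in TKO and 940.2, 857 and 1188 in DKO retinae. The lowest TKO retina lay 936 normalized counts above the highest DKO retina, and the closest pair was TKO replicate 3 and DKO replicate 3. Mean levels were 2429 ± 291 for TKO against 995 ± 172 for DKO (SD, n = 3), and the log2 fold change was 1.29 (SE 0.139, a 2.44-fold difference). With each retina left out in turn it ranged from 1.19 to 1.43. Vax2os was the 1 member of 7 that passed the study's 3 criteria (adjusted p up to 0.05, a log2 fold change of 1 or more in either direction and a mean count from 10), which 6.35% of the tested genes passed, and the choice of the members used this contrast. Vax2os occupies bases 83692806 to 83712201 of chromosome 6 (GRCm38, minus strand), with 5406 bases of merged exons.

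**Figure D1:**
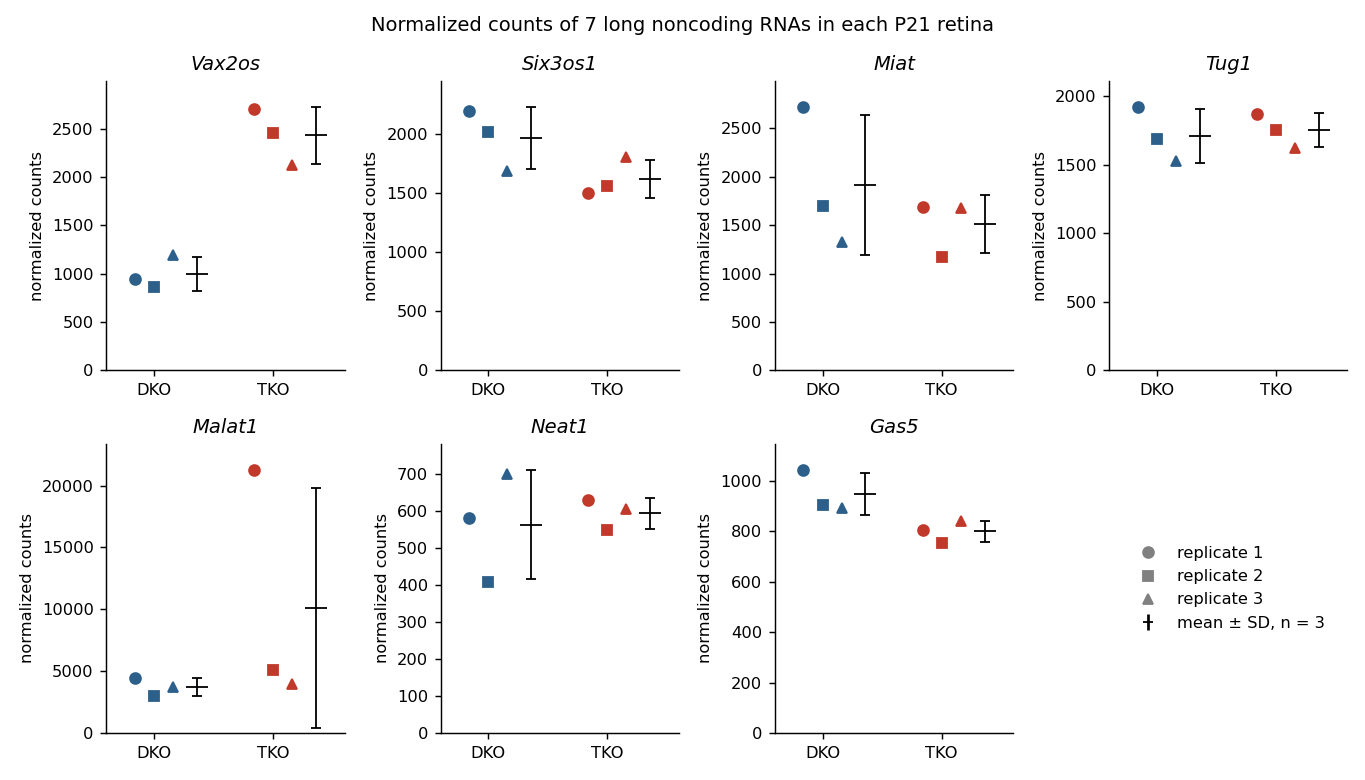
Normalized counts (y axis, from 0) of the 7 long noncoding RNAs in each retina by genotype (x axis), with the mean ± SD beside the points. The 3 TKO retinae sit above the 3 DKO retinae for Vax2os and below them for Gas5, the groups overlap for the other 5 genes, and Malat1 in TKO replicate 1 reaches 21258.

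Vax2, the homeobox gene on the other strand that specifies the ventral retina, was also higher in TKO retinae, though less so and less firmly. It had 260.3, 345 and 289.6 normalized counts in TKO and 183, 185 and 241 in DKO retinae, groups that did not overlap. Its log2 fold change was 0.56 (SE 0.160, edgeR adjusted p = 0.0486). The call was lost without TKO replicate 1 (0.0609), TKO replicate 2 (0.172), TKO replicate 3 (0.0595), DKO replicate 1 (0.148) or DKO replicate 2 (0.168), and also with scaling by total counts (0.107) or by the upper quartile (0.0544). The annotated exons of Vax2os and Vax2 share 0 bases and the starts lie 937 bases apart. Within a library, Vax2os reached 10.4, 7.12 and 7.33 times the counts of Vax2 in TKO retinae and 5.15, 4.64 and 4.93 times in DKO retinae, so the RNA was higher relative to its partner in every TKO retina. The genes on either side, Cd207 and Atp6v1b1, had fewer than 11 normalized counts in every library and did not pass (log2 fold changes 1.31 and 0.94, edgeR adjusted p = 0.318 and 0.163).

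Six3os1 was lower in most TKO retinae, by less than the distance between some replicates. It had 1500.0, 1564 and 1806 normalized counts in TKO and 2200.4, 2014 and 1684.5 in DKO retinae. TKO replicate 3 lay above DKO replicate 3, so the groups overlapped. The log2 fold change was -0.28 (SE 0.117) and stayed between -0.38 and -0.19 with 1 retina left out. Six3os1 lies on the minus strand of chromosome 17 from 85600651 to 85618398 and has 106 exonic bases in common with Six3. The strand setting of the counting was not given in the sources used here, and reads in those bases cannot be assigned by position alone.

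Six3, a homeobox gene needed for the eye field and the forebrain, had 1120.4, 1363 and 1340.1 normalized counts in TKO and 1906, 1771 and 1628 in DKO retinae, without overlap. Its log2 fold change was -0.47 (SE 0.101, edgeR adjusted p = 0.0186). The call was lost without TKO replicate 1 (0.0523), TKO replicate 2 (0.0544), DKO replicate 1 (0.0673) or DKO replicate 2 (0.0716). The ratio of Six3os1 to Six3 within a library was 1.34, 1.15 and 1.35 in TKO and 1.15, 1.14 and 1.04 in DKO retinae, and these ranges overlapped at 1.15. Six2 on the far side fell short of the threshold (log2 fold change -1.10, edgeR adjusted p = 0.0870) and passed it only without TKO replicate 3 (0.0411). Camkmt, the nearest gene on the other flank, did not pass either (-0.45, edgeR adjusted p = 0.130).

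Among the nuclear RNAs, Miat varied most between DKO retinae. It had 1687, 1171 and 1682 normalized counts in TKO and 2719, 1702 and 1327 in DKO retinae. DKO replicate 1 stood above the other 5 libraries, which overlapped. The log2 fold change of -0.34 (SE 0.253) ranged from -0.55 to -0.0019 with 1 retina left out. Miat lies on the minus strand of chromosome 5 from 112213228 to 112229395. SF1 is the splicing factor that recognizes the branch point, and Sf1 had 2652 to 2785 normalized counts in TKO and 2519 to 2664 in DKO retinae (log2 fold change 0.06, edgeR adjusted p = 0.582). Celf3, another splicing regulator reported to bind Miat, did not pass either (0.04, edgeR adjusted p = 0.749). Qk, which encodes the splicing factor Quaking, fell just short of the threshold (-0.34, edgeR adjusted p = 0.0505) and passed it without DKO replicate 3 (0.0306). These 3 genes were named for their known binding after their values were seen. Cryba4, a lens crystallin gene 17097 bases from Miat, rose in TKO retinae (3.05, edgeR adjusted p = 0.0252), with 139.98 normalized counts in TKO replicate 2, the library with the highest lens markers. That call was lost without TKO replicate 2 (0.0630), DKO replicate 1 (0.0842), DKO replicate 2 (0.0861) or DKO replicate 3 (0.0527). The nearest gene on the other side, C130026L21Rik, had at most 7.00 normalized counts and did not pass (-1.18, edgeR adjusted p = 0.350).

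Malat1 was set apart by a single library. It had 21258, 5049.9 and 3954 normalized counts in TKO and 4465, 3019.5 and 3713 in DKO retinae. TKO replicate 1 was 4.21 times the next highest library, and the other 5 libraries lay between 3019.5 and 5049.9 with the genotypes overlapping. The log2 fold change of 1.43 (SE 0.571) was 0.27 (SE 0.177) without TKO replicate 1. Malat1 took 0.153% of all counts in TKO replicate 1 and 0.0256% to 0.0375% in the other libraries. Of 11681 genes with a mean of at least 100 normalized counts, Malat1 and Kcnq1ot1 (3.21 times the next library) were the 2 that stood at least 3 times above every other library in TKO replicate 1. Kcnq1ot1 is also a long nuclear noncoding RNA. TKO replicate 2, DKO replicate 1 and DKO replicate 3 had 8, 6 and 7 such genes of their own.

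Neat1 lies 22035 bases from Malat1 on the minus strand of chromosome 19 and did not share its peak. It had 629.6, 548 and 607 normalized counts in TKO and 582, 408 and 702 in DKO retinae. The TKO values fell inside the range of the DKO values, and the log2 fold change was 0.077 (SE 0.179). Malat1 was 33.8, 9.21 and 6.51 times Neat1 in TKO retinae and 7.68, 7.40 and 5.29 times in DKO retinae. Frmd8, which flanks the pair, fell in TKO retinae (-0.73, SE 0.199, edgeR adjusted p = 0.0408), a call lost without TKO replicate 1 (0.121), TKO replicate 2 (0.129), DKO replicate 1 (0.0512), DKO replicate 2 (0.130) or DKO replicate 3 (0.0847).

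Tug1 was the steadiest of the 7 members. It had 1874, 1758 and 1626 normalized counts in TKO and 1921, 1691 and 1526.5 in DKO retinae. The highest library was 1.26 times the lowest, the genotypes overlapped, and the log2 fold change was 0.034 (SE 0.103). Tug1 is transcribed away from Morc2a on chromosome 11 (3639785 to 3649673, minus strand), and 483 exonic bases of the pair overlap. Morc2a did not pass (-0.017, SE 0.0840, edgeR adjusted p = 0.909). The outer neighbours did. Osbp2, a gene for an oxysterol-binding protein, had 7612, 7890.5 and 4599.5 normalized counts in TKO and 2033, 2282 and 3129.8 in DKO retinae, a rise of 1.43 on the log2 scale (SE 0.231, edgeR adjusted p = 0.00829) that passed with any 1 retina left out. Smtn, which encodes a smooth muscle cytoskeletal protein, fell (-0.69, SE 0.176, edgeR adjusted p = 0.0336), and its call was lost without TKO replicate 1 (0.0776), TKO replicate 2 (0.125), DKO replicate 1 (0.116) or DKO replicate 2 (0.106).

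Gas5 was lower in every TKO retina by a small margin. It had 807, 755 and 839 normalized counts in TKO and 1044, 906 and 893 in DKO retinae. The highest TKO retina lay 53.4 normalized counts below the lowest DKO retina. The log2 fold change was -0.24 (SE 0.0904) and stayed between -0.28 and -0.17 with 1 retina left out. Vax2os and Gas5 were the 2 of 7 members whose groups did not overlap, where 38.6% of all tested genes did not overlap. Gas5 lies on the plus strand of chromosome 1 (161034422 to 161038539). Zbtb37, which starts on the other strand 427 bases away, did not pass the threshold (0.28, edgeR adjusted p = 0.242). Snord47, a snoRNA inside Gas5, and Serpinc1 had at most 10.4 normalized counts and edgeR adjusted p = 0.96 and 0.97.

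**Figure D2:**
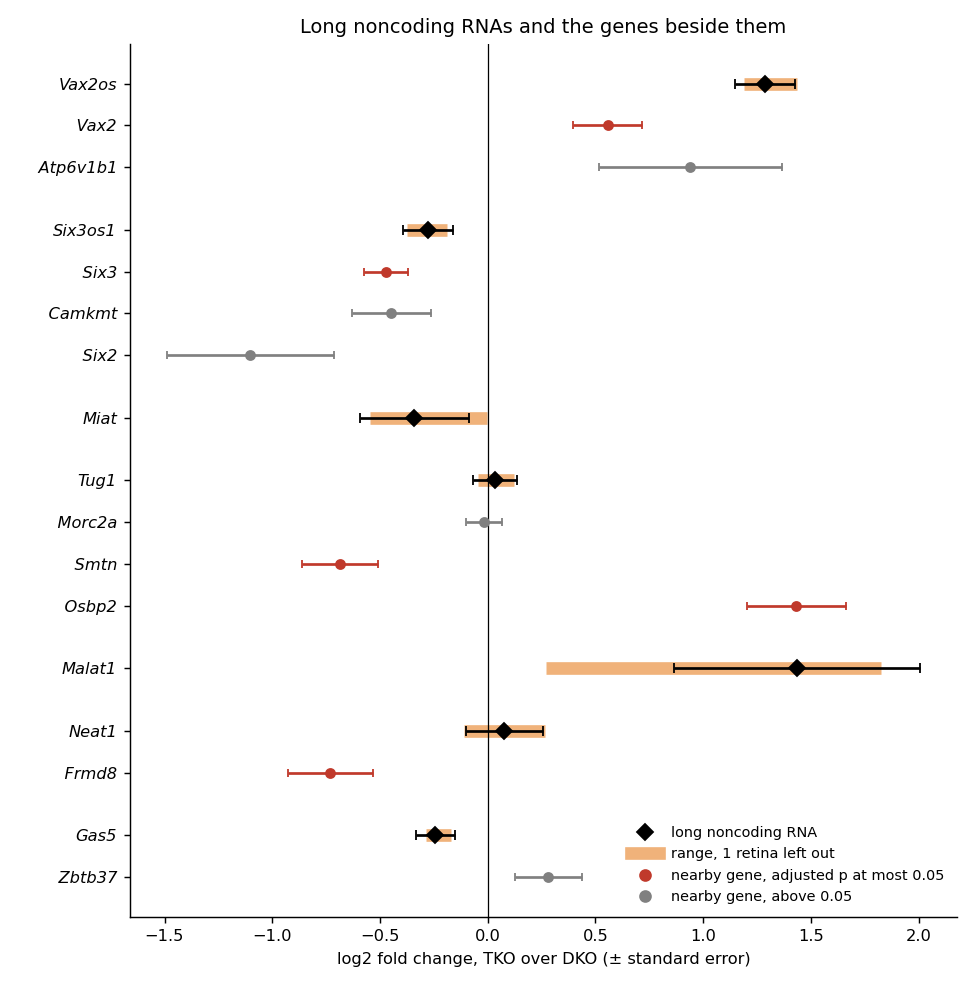
Log2 fold change of TKO over DKO (x axis, bars show the standard error) for the 7 long noncoding RNAs (diamonds, with an orange band for the range when each retina is left out) and for their nearby genes (circles, red where the adjusted p was at most 0.05). The band of Malat1 runs from 0.27 to 1.83, while that of Vax2os runs from 1.19 to 1.43. Some nearby genes are not drawn, among them those with an SE of 0.5 or more (Cd207, C130026L21Rik, Cryba4, Snord47 and Serpinc1).

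Of the 17 nearby genes that are no members, 3 rose (Vax2, Cryba4 and Osbp2) and 3 fell (Six3, Smtn and Frmd8) at the edgeR threshold (adjusted p of at most 0.05), where 7.35% of all tested genes rose and 9.2% fell. With 1 retina left out, between 1 and 6 of the 17 passed, with 1 each without TKO replicate 2, DKO replicate 1 or DKO replicate 2 and 2 without TKO replicate 1. Scaling by total counts alone moved the median over all genes from -0.011 to -0.17 on the log2 scale, and 778 genes rose and 2610 fell in place of 1243 and 1556. Under that scaling the log2 fold change of Vax2os was 1.13, that of Gas5 was -0.40 and that of Tug1 turned to -0.13.

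Levels of the members can be compared with each other only per length. Per kilobase of exon and 1e6 counts, Malat1 was highest at 114 ± 109.7 (TKO) and 42.2 ± 8.18 (DKO; SD, n = 3). Vax2os followed in TKO retinae at 35.5 ± 4.26, but at 14.5 ± 2.52 in DKO retinae it lay among the middle members. Gas5 was at 16.8 ± 0.900 and 19.9 ± 1.76. Miat (12.9 ± 2.52 and 16.3 ± 6.13), Tug1 (14.2 ± 1.01 and 13.9 ± 1.61) and Six3os1 (10.8 ± 1.08 and 13.1 ± 1.74) had overlapping spreads in DKO retinae. In TKO retinae the means of Tug1 and Six3os1 both lay within the wide spread of Miat, whereas every library of Tug1 (13.2 to 15.2) lay above those of Six3os1 (9.98 to 12.01). Neat1 was lowest at 2.26 ± 0.160 and 2.15 ± 0.562 over its 20771 annotated exon bases. That is the length of its long form, whose 3′ end is not polyadenylated. The place and rank of Neat1 therefore depend on a length that these libraries may not cover, and a level over a shorter transcript was not computed. Exon lengths were merged over all annotated transcripts, with 3760 bases for Gas5, 11884 for Six3os1, 9734 for Tug1 and 5406 for Vax2os. Their longest annotated transcripts have 2556, 5601, 6719 and 4063 bases. The levels, order and ranks of these members thus also depend on the length used. Among 772 annotated long noncoding genes tested, Malat1 ranked 1 in TKO and 7 in DKO retinae by the mean of this level, Vax2os 13 and 36, Gas5 32 and 17, Tug1 48 and 38, Miat 56 and 26 and Six3os1 70 and 45, with Neat1 below them. The TKO mean of Malat1 was raised by TKO replicate 1, at 240.6 against 57.2 and 44.8 in TKO replicates 2 and 3. The DKO libraries had 34.2 to 50.5, and the level rank of Malat1 without TKO replicate 1 was not computed.

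The other long noncoding genes gave the setting for these values. Of 765 annotated long noncoding genes besides the members, 58 (7.58%) rose and 26 (3.40%) fell at that threshold, with a median log2 fold change of 0.034. Of 15056 protein-coding genes, 1115 (7.41%) rose and 1458 (9.68%) fell, with a median of -0.013. The long noncoding genes had a lower median count (25.9 against 349), and the difference between the classes was not tested. Scaling by total counts only gave 44 and 39 noncoding and 696 and 2459 protein-coding genes. The 84 calls became 36, 18 and 97 when TKO replicate 1, 2 or 3 was omitted and 17, 18 and 85 when DKO replicate 1, 2 or 3 was, and the 2573 protein-coding calls 1203, 664 and 3322 and 756, 604 and 2966 in the same order. Among the 192 long noncoding genes with a mean of at least 100, the log2 fold change of Malat1 ranked 8 from the top (64 without TKO replicate 1) and that of Vax2os 11 (12 without it), while Gas5, Six3os1 and Miat ranked 163, 164 and 170. Because the members were chosen on this contrast, their ranks are no separate result.

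A list of other well known long noncoding RNAs had 24 tested genes, of which 4 rose and 2 fell, with a median log2 fold change of 0.014. Otx2os1, the opposite-strand RNA of the photoreceptor factor Otx2, rose by 1.20 on the log2 scale (edgeR adjusted p = 0.0193). Dleu2 (0.87, adjusted p = 0.0416), Firre, an RNA of nuclear architecture (0.49, adjusted p = 0.0368), and the imprinted Peg13 (0.44, adjusted p = 0.0229) rose as well. Sox2ot, which overlaps the progenitor factor Sox2, had 53.9, 45.3 and 62.6 normalized counts in TKO and 229, 359.8 and 229 in DKO retinae, a fall of -2.34 (edgeR adjusted p = 0.00464). Foxd2os fell by -3.01 (edgeR adjusted p = 0.00879). These 2 falls passed with any 1 retina left out and were the 2 calls of the list without TKO replicate 1, TKO replicate 2, DKO replicate 1 or DKO replicate 2. The rises of Otx2os1, Firre and Peg13 were lost without TKO replicate 1, TKO replicate 2, DKO replicate 1 or DKO replicate 2 (adjusted p up to 0.0843, 0.135 and 0.0984), and that of Dleu2 without each of these or DKO replicate 3 (up to 0.144). The most abundant of the list besides Peg13 were Meg3, an imprinted RNA of neurons, and 2900097C17Rik, both with a log2 fold change of 0.09 (edgeR adjusted p = 0.853 and 0.528).

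Genes related to the members by function were looked at by list. Of 12 tested host genes of snoRNAs besides Gas5, 0 passed with edgeR or DESeq2 and 3 had an unadjusted p under 0.05 in edgeR. The median log2 fold change was 0.11, and the 3 most abundant were Snhg11 (0.09), Snhg1 (-0.47, adjusted p = 0.109, 0.0378 without DKO replicate 3) and Snhg12 (0.13) on the log2 scale. Of 20 nuclear speckle and splicing proteins, the companions of Malat1, 0 passed with edgeR (3 at an unadjusted p under 0.05) and 2 with DESeq2. Their median log2 fold change was -0.092, with Son at 0.41 (adjusted p = 0.0676), Srrm2 at 0.34 (0.233) and Prpf8 at 0.23 (0.184). Of 15 paraspeckle proteins, the partners of Neat1, 1 rose and 4 fell, with a median log2 fold change of -0.15 against -0.011 over all genes. Pspc1, a core paraspeckle protein, had a log2 fold change of -0.38 (adjusted p = 0.0195), the cleavage factor gene Nudt21 -0.44 (0.0273) and Dazap1 -0.35 (0.0370), while Hnrnph3 rose by 0.39 (0.0425). Pspc1 and Dazap1 lost their calls without TKO replicate 1, TKO replicate 2, DKO replicate 1 or DKO replicate 2, and Nudt21 and Hnrnph3 without any 1 of those or DKO replicate 3 (adjusted p up to 0.0898, 0.113, 0.101 and 0.138). Without TKO replicate 1 or 2 or DKO replicate 1 or 2, 0 of the list's 5 calls were left. Hnrnpk, Ewsr1 and Tardbp, the most abundant of the list, did not pass (-0.20, -0.13 and -0.11, edgeR adjusted p = 0.156, 0.306 and 0.527).

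Genes that pattern the eye moved in both directions. Of 18 genes of the dorsal and ventral retina, the axis along which Vax2 and Vax2os are known to differ, 3 rose and 5 fell, with a median log2 fold change of -0.51. The dorsal factors Tbx3 (-1.18, adjusted p = 0.00780) and Tbx5 (-0.95, adjusted p = 0.0133) fell, and so did Efnb2 (-0.81, adjusted p = 0.0181), a dorsal ephrin, and Ephb2 (-0.52, adjusted p = 0.0298), a ventral ephrin receptor, by edgeR. Besides Vax2, the cone genes Opn1sw (1.24, adjusted p = 0.0467) and Thrb (0.60, adjusted p = 0.0472) rose, with overlapping groups for Opn1sw. Aldh1a1, a dorsal enzyme of retinoic acid synthesis, did not pass (-0.50, edgeR adjusted p = 0.172). Only Tbx3 of these passed with any 1 retina left out. Tbx5 was lost without DKO replicate 1 (0.0503) or DKO replicate 2 (0.0664), and Efnb2, Ephb2, Opn1sw and Thrb without TKO replicate 1, TKO replicate 2, DKO replicate 1 or DKO replicate 2 (up to 0.0716, 0.106, 0.156 and 0.162). Members of both poles were thus among the genes that fell, and the list's 8 calls became 2, 2 and 11 without TKO replicate 1, 2 or 3 and 1, 1 and 9 without DKO replicate 1, 2 or 3.

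Of 11 eye field factors, 1 rose and 3 fell, with a median log2 fold change of -0.47. Otx2, which drives photoreceptor and bipolar fate, rose by 0.94 (edgeR adjusted p = 0.0106), lost without DKO replicate 1 (0.0509) or DKO replicate 2 (0.0539). Sox2, a progenitor and glial factor, fell by -1.15 (edgeR adjusted p = 0.00627) with any 1 retina left out, and Lhx2 fell by -0.68 (edgeR adjusted p = 0.0440), lost without TKO replicate 2 (0.0919), DKO replicate 1 (0.120) or DKO replicate 2 (0.137). Six3 was the other factor that fell. Leaving out TKO replicate 2 or 3 gave 2 or 6 calls in place of 4, and leaving out DKO replicate 1 or 2 gave 1. Pax6, among the most abundant besides Otx2, did not pass (-0.25, edgeR adjusted p = 0.196).

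Pairs of an opposite-strand RNA and its partner were then listed by name (a symbol ending in os or ot and the protein-coding gene it is named for) where GENCODE places both on opposite strands, a list made after values were seen. Without the members there were 51 such pairs with a mean of at least 10 normalized counts for both genes. Another 5 pairs with no GENCODE strand for the RNA were left out, and so was Sox2ot, which lies on the same strand as Sox2. The minimum mean also left out Foxd2os, which passed (-3.01, edgeR adjusted p = 0.00879). Its partner Foxd2 had a mean of 6.21 and did not pass (-1.83, edgeR adjusted p = 0.0682). The noncoding RNA passed the edgeR threshold in 5 pairs, and in all 5 the partner also passed and had the same sign. The RNAs rose in 2 pairs, Otx2os1 with Otx2 (1.20 and 0.94) and Uckl1os with Uckl1 (1.75 and 1.31). They fell in 3 pairs, Igf2os with Igf2 (-3.06 and -1.97), Bach2os with Bach2 (-1.44 and -0.75) and Rbm3os with Rbm3 (-1.07 and -0.91). In each the noncoding RNA had the larger log2 difference, as Vax2os did beside Vax2, whereas Six3os1 had a smaller one than Six3. These differences within pairs were not tested. In each of the 5 pairs the RNA had the lower mean count, and the pairs were picked because it passed. That choice favours a larger difference in the RNA, and Vax2os was itself chosen on this contrast. The partner passed in 11 of the 51 pairs, and 38 of 51 pairs had the same sign. The 5 pairs became 2 without TKO replicate 1, TKO replicate 2, DKO replicate 1 or DKO replicate 2 and 7 without TKO replicate 3. Reads from the exons that such pairs share cannot be told apart without the strand.

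**Figure D3:**
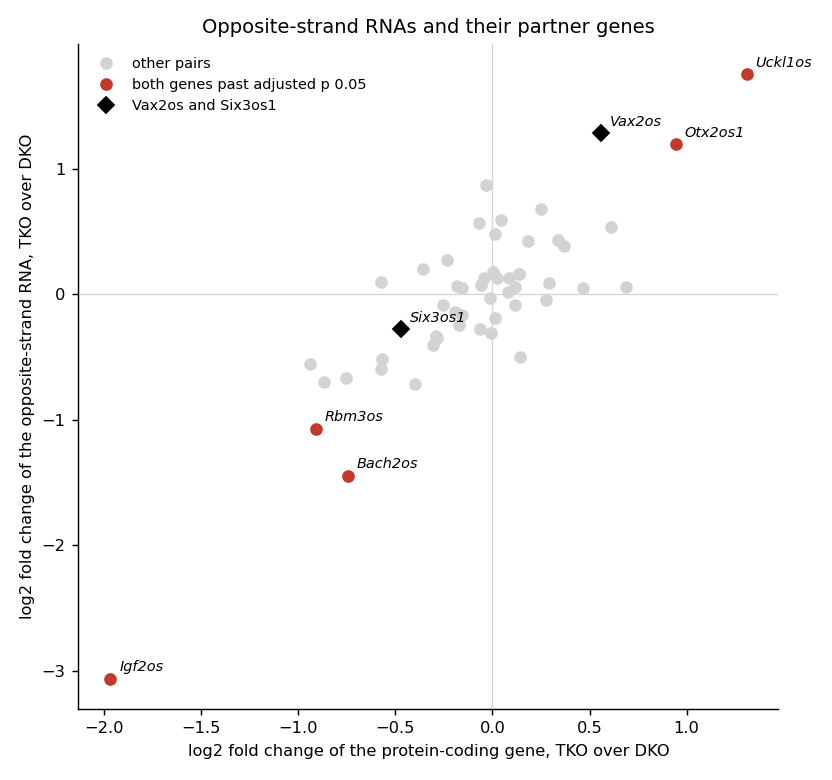
Log2 fold change of TKO over DKO of each opposite-strand RNA (y axis) against that of the protein-coding gene it is named for (x axis). Red points are the 5 pairs in which both genes passed the edgeR threshold, grey points are the other pairs, and black diamonds are Vax2os (1.29 beside 0.56 for Vax2) and Six3os1 (-0.28 beside -0.47 for Six3).

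The genes whose pattern over the 6 libraries was most like that of Vax2os, by the root mean square difference of centred log2 counts among 11680 genes with a mean of at least 100, were Sntb2 (0.0854), Spata1 (0.101), Slco1a4 (0.112), Atp8a2 (0.115) and Stx3 (0.119). Stx3, which encodes a syntaxin of photoreceptor and bipolar synapses, had 10273, 8601 and 6461 normalized counts in TKO and 2841, 2765 and 3706 in DKO retinae. It shared with Vax2os the order of the 6 retinae, with TKO replicate 1 highest and DKO replicate 2 lowest, as did Spata1 and Atp8a2. These genes were picked for likeness over the same libraries, so a shared order is no separate result. For Six3os1 the nearest were Smarca1 (0.0332), Tspan12 (0.0359) and Fhl1 (0.0404).

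Markers of other cell states moved between the genotypes with Vax2os. All 12 rod markers rose, with a median log2 fold change of 1.81 and a summed level of 399631 to 805938 normalized counts in TKO and 136600 to 257595 in DKO retinae. Among them Nrl, the rod-determining factor, rose by 2.08 (edgeR adjusted p = 0.00755), Pdc by 2.09 (0.00677) and Pde6b by 2.02 (0.00733), each with any 1 retina left out. Gnat1 (1.84, adjusted p = 0.0114) and Sag (1.63, adjusted p = 0.0132), among the most abundant, were lost by edgeR without TKO replicate 2, DKO replicate 1 or DKO replicate 2 (up to 0.0627). Of 6 photoreceptor precursor factors, 3 rose, Crx by 1.44 (edgeR adjusted p = 0.00821), Otx2 by 0.94 and Neurod1 by 0.82 (0.0369, and up to 0.128 without TKO replicate 1, TKO replicate 2, DKO replicate 1 or DKO replicate 2). Of 10 cone markers 3 rose, with a median of 0.90. Leaving out TKO replicate 2, DKO replicate 1 or DKO replicate 2 gave 8, 6 or 5 rod calls in place of 12, and the 3 precursor calls fell to 1 without either of those DKO replicates. The 3 cone calls became 0 with replicate 1 or 2 of either genotype left out and 9 with TKO replicate 3 left out.

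All 10 markers of dividing cells fell, with a median log2 fold change of -2.65 and a summed level of 924 to 2582 normalized counts in TKO against 5833 to 12476 in DKO retinae. Top2a (-3.21, adjusted p = 0.00780), Birc5 (-2.89, 0.00752) and Ccnb1 (-2.89, 0.00846) had the largest falls by edgeR, and the abundant Mki67 (-2.52, 0.0152) and Ccna2 (-1.32, 0.0108) fell as well. Mki67 was lost without TKO replicate 2 (0.0719), DKO replicate 1 (0.0569) or DKO replicate 2 (0.0524), and Ccna2 without TKO replicate 2 (0.0537), where 6 of the 10 calls were left. The counts came from whole retinae, and fewer cells of a type and less RNA per cell cannot be told apart. Vax2os per 1000 normalized counts of rod markers was 3.36, 3.55 and 5.32 in TKO and 6.72, 6.27 and 4.61 in DKO retinae. Relative to rod markers Vax2os was thus lower in TKO replicates 1 and 2 than in any DKO retina, and TKO replicate 3 lay among the DKO retinae. The part of these cell states in the levels of Vax2os was not tested.

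**Figure D4:**
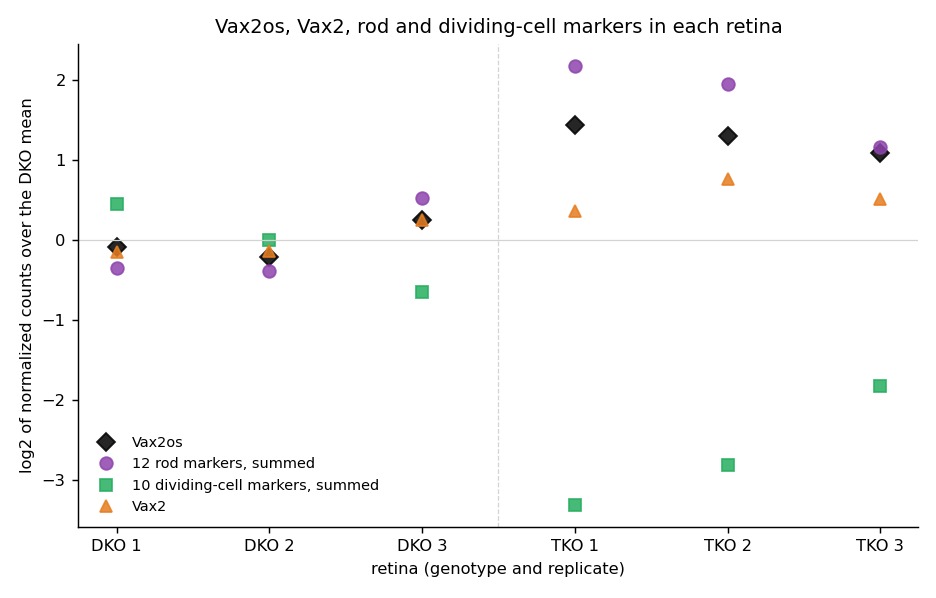
Log2 of the normalized counts over the mean of the DKO retinae (y axis) in each retina (x axis) for Vax2os, Vax2, the sum of 12 rod markers and the sum of 10 markers of dividing cells. In the TKO retinae Vax2os lies above Vax2 and at or below the rod sum, and replicate 3 of each genotype lies nearest the other genotype for rod and dividing-cell markers.

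The remaining marker lists moved in different directions and to different degrees. Of 10 bipolar markers 3 rose (median log2 fold change 0.37), and of 10 amacrine and 10 ganglion cell markers 0 passed with edgeR (medians -0.21 and 0.16, with 3 and 1 at an unadjusted p under 0.05 and 3 and 0 called by DESeq2). Of 9 Muller glia markers 3 rose and 2 fell (median -0.061), and of 10 microglia markers 6 fell (median -1.06). Lens markers rose in 6 of 14 (median 3.10) and markers of the retinal pigment epithelium in 1 of 10 (median 0.99). With 1 retina left out, the calls ranged from 0 (without DKO replicate 2) to 3 for bipolar, from 2 (without DKO replicate 2) to 6 (without TKO replicate 3) for Muller glia, from 0 (without TKO replicate 2 or DKO replicate 2) to 7 for microglia, from 1 (without DKO replicate 1 or 2) to 9 (without TKO replicate 1) for lens and from 0 to 2 (without DKO replicate 3) for pigment epithelium markers.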

How the data were processed

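P21 retinae of Rb1/p107/Hells TKO and of Rb1/p107 DKO mice gave 3 libraries of each genotype, grouped by the genotype in the sample titles. Per the paper's methods, poly(A) libraries were made with a stranded kit, read pairs were aligned to GRCm38 with STAR with up to 3 alignments per read, and genes were counted with HTSeq. The submitters' processing notes name TopHat2 and featureCounts instead, and the strand setting is not given in the sources used here. The authors deposited raw read counts per gene, without normalization, with genes named by symbol. The ATAC-seq was not analysed here.

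A gene needed a summed count of 10. The 16904 genes left were compared by the quasi-likelihood test of edgeR 4.0.16 (R 4.3.3, TMM scaling, Benjamini-Hochberg adjustment), with standard errors derived from the log2 fold change and the F statistic. The study's 3 criteria were applied to that test in place of DESeq2, with the mean count taken from DESeq2 1.42.0. The fit was tested on simulated data. Positions, exons and gene classes came from GENCODE M21 (GRCm38), in which 22758 of 24062 symbols (94.6%) were found, and promoter windows from RefSeq. A chi-square test found every pair of replicates further apart than sampling noise (8.97 to 26.6 per degree of freedom). The labels number the libraries without saying whether each came from a separate animal. Both sexes were present in each genotype by Xist, so the libraries of a genotype did not all come from a single animal, though those of the same sex may have. The p-values measure only the spread between these samples, which may be partly technical. Intervals and standard errors cover these libraries only.

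The members, gene lists and tests were chosen with earlier results of these data known. Named genes were the members, Hells, the genes overlapping or next to a member, for each list discussed up to 3 genes of each direction with the largest absolute log2 fold change past an adjusted p of 0.05 and the 3 with the largest mean, and the genes most like Vax2os and Six3os1. Some genes this rule names are counted in their groups but not reported here by name. Of the cell type lists, genes are named for rods, photoreceptor precursors and dividing cells. Likeness used log2 counts plus 1. Fits were repeated with DESeq2, with 3 scalings and 3 filters besides the main ones, with robust dispersions, with a replicate block and without each retina. The pairs of opposite-strand RNAs were listed after seeing the data. Replicate numbers did not pair the samples.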

Additional observations from a re-analysis of the deposited data

How the results depend on the processing

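The log2 fold change of Vax2os ranged from 1.13 to 1.43 over 15 alternatives, all with the same sign. Those of Six3os1, Miat, Malat1 and Gas5 also kept their sign in 15 of 15, that of Neat1 in 13 (from -0.11 to 0.27) and that of Tug1 in 11 (from -0.13 to 0.12). Malat1 ranged from 0.27 without TKO replicate 1 to 1.83 without TKO replicate 3. Scaling by total counts only moved Tug1 to -0.13 and Gas5 to -0.40, and gave 778 higher and 2610 lower genes at an adjusted p of at most 0.05. Without a minimum fold change, 2721 genes in place of 1074 were differentially expressed. Of the 5 genes most like Vax2os, 4 stayed with a minimum mean of 10, where Lmod1 took the place of Stx3. Counts of 3 retinae a group limit all calls.

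With 1 retina left out, the count of differentially expressed genes ranged from 471 to 1500 (121 to 476 higher, 312 to 1024 lower), that of genes past an adjusted p of 0.05 from 214 to 1617 higher and from 404 to 1973 lower, that of genes next to the members from 1 to 6 and that of genes on the lists other than markers (25 with all retinae) from 5 to 31.

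Under the replicate block, 90 genes were differentially expressed (15 higher, 75 lower), 24 rose and 82 fell at an adjusted p of at most 0.05, and 0 of the nearby genes and 1 gene of these lists passed. Deviations of same-numbered retinae correlated at 0.0681, -0.0454 and -0.181, so the number is not evidence of a pairing, and a call lost under the block is no weaker effect. The log2 fold change of Serpinc1 turned to -0.056 under the block.

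Genes near 0 changed sign. Under total counts only, 2900097C17Rik was at -0.063, Celf3 at -0.11, Meg3 at -0.076, Serpinc1 at -0.092, Sf1 at -0.094, Snhg11 at -0.071, Snhg12 at -0.027 and Snord47 at -0.064. With 1 retina left out, Celf3 ranged from -0.015 to 0.083, Meg3 from -0.18 to 0.38, Morc2a from -0.072 to 0.029, Serpinc1 from -0.26 to 0.58, Snhg11 from -0.092 to 0.38, Snhg12 from -0.0013 to 0.23 and Snord47 from -0.75 to 2.12. The cause was not tested.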
